A study of Mus musculus with 6 samples.

Results

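The Hox genes of the mouse were followed in adipose-derived stromal cells (ADSCs, fibroblast-like progenitor cells isolated from fat) with and without regulatory T cell (Treg) co-culture. Members were all genes whose symbol is Hox, a cluster letter from a to d and a number, which gave 39 of the 22186 genes in the deposited table: 11 of the Hoxa, 10 of the Hoxb, 9 of the Hoxc and 9 of the Hoxd cluster. Primary ADSCs of wild-type (WT) genotype made up both groups. The control group (n = 3 libraries) was ADSCs alone, and the Treg co-culture group (n = 3) was ADSCs after 48 h with Tregs, T cells that hold back immune reactions. Levels were given as TPM, the share of all transcripts after correction for gene length, so that levels of different genes can be compared. The labels do not say whether the libraries of a group came from separate animals or cultures, so p-values measure only the spread between these libraries.

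Hox genes encode transcription factors with a homeodomain, a DNA-binding fold of helices encoded by a conserved stretch called the homeobox. They lie in 4 clusters, and genes that occupy the same place in different clusters carry the same number and form a paralog group. In the embryo, low-numbered genes at the 3′ end of a cluster are used towards the head and high-numbered genes at the 5′ end towards the tail and the tips of the limbs. Adult fibroblasts, fat progenitors included, are known to keep a Hox pattern that reflects the body site they came from. Hox proteins bind DNA together with homeodomain cofactors of the Pbx and Meis families. Polycomb complexes keep Hox genes silent and trithorax-type methyltransferases keep them active, and retinoic acid is a known inducer of the 3′ genes in the embryo.

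The libraries held stromal transcripts as labelled, with Col1a2 between 5926 and 7001 TPM. Of 11 stromal markers, 9 were lower and 1 higher after co-culture. Defining T cell markers were at or near 0: Cd3d, Cd3e, Cd3g and Cd4 were at 0 in every library, as were 9 of 16 markers in all, and the 16 summed to 3.81 to 3.93 TPM in controls and 3.83 to 4.35 TPM in the co-cultures. Skeletal muscle markers moved with the groups, 9 of 10 tested being higher, with a sum over 11 markers of 1034 to 1099 TPM in controls and 2730 to 2799 TPM in the co-cultures. The 12 macrophage markers summed to 105 to 111 TPM in controls and 76.2 to 91.3 TPM in the co-cultures, of which Lyz2 alone went from 65.9 to 44.7 TPM and was the 1 of 11 tested that passed, with Csf1r and Fcer1g on the higher side. Endothelial markers summed to 39.5 to 41.4 and 34.3 to 35.6 TPM, with Tek and Cdh5 lower, Kdr higher (7.16 to 8.82 TPM) and 2 others not called. The part of these cell type markers in the Hox results was not tested. In bulk RNA, fewer cells of a type and less RNA per cell cannot be told apart. Treg co-culture 1 stood apart in transcripts of heart and liver: the 8 markers summed to 102 TPM there, with Alb at 64.9 TPM against at most 0.210 TPM in the other libraries. Counts of Hox genes and of the gene lists are therefore also given without it.

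The homeoboxes show how alike the genes of 1 paralog group are in this conserved stretch, which bears on how far reads from it can be told apart. In GENCODE M21 transcripts (build GRCm38), a homeobox of 180 bases was found in all 39 genes from the in-frame codons of the invariant stretch of its recognition helix. Between genes of the same paralog group the homeoboxes were 67.2% to 93.9% identical (median 80.6% over 42 pairs), against a median of 60.6% between groups. The sequences below belong to the genes with the greatest differences between the groups of libraries, Hoxb2 and Hoxc13, each beside a paralog that did not pass the test or was silent. Capitals mark the bases that differ from the other gene of the pair. Hoxb2 lies at chr11:96352985-96353164 (+ strand) and Hoxa2 at chr6:52163411-52163590 (- strand), with 46 differing bases (74.4% identity).
Hoxb2: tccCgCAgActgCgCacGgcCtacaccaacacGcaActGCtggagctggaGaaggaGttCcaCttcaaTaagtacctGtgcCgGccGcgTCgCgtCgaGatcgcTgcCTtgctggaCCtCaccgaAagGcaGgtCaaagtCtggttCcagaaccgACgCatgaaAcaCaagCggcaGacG
Hoxa2: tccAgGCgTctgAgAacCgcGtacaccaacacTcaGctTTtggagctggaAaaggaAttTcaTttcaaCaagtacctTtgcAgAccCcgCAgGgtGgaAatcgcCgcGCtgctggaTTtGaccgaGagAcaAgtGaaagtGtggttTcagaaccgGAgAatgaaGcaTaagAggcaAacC
Hoxc13 lies at chr15:102927210-102927389 (+ strand) and Hoxa13 at chr6:52258928-52259107 (- strand), with 41 differing bases (77.2% identity).
Hoxc13: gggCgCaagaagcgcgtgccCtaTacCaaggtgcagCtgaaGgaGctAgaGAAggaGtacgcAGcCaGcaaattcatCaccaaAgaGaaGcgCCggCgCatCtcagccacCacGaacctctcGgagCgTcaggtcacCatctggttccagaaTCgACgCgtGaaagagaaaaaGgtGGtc
Hoxa13: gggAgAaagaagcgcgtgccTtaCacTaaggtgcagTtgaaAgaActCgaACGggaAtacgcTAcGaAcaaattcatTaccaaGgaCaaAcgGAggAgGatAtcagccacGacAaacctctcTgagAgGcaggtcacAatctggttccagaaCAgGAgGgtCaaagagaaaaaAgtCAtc
Each homeobox lies within 1 coding exon. The closest homeoboxes were those of Hoxa3 and Hoxb3 (93.9%), Hoxa3 and Hoxd3 (93.3%) and Hoxb3 and Hoxd3 (92.8%). How reads that match more than 1 gene were assigned is not stated in the labels. The comparison covers only these 180 bases of each gene. How far reads from them affect the separate values of Hoxa3, Hoxb3 and Hoxd3 was not tested.

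Overlapping neighbours limit single values too, since no source used here says that reads were counted by strand. In GENCODE M21, Hoxb2 shared 27.3% of its exonic bases with the antisense gene Hoxb3os and Hoxb3 shared 52.9% with it. Hoxa3 overlapped 5 other annotated genes, sharing 8.36% of its exonic bases with the antisense gene Hoxaas2 and 8.01% with Gm28308 on its own strand. Hoxa4 shared 16.0% with the antisense gene Gm29430, and Hoxa11 overlapped Hoxa11os. Hoxa7 shared 20.4% with the antisense gene Hoxaas3. On the same strand, Hoxd3 shared 53.1% and Hoxd4 39.1% with the gene model Gm28230. Some Hox genes also overlapped each other on the same strand: Hoxd3 and Hoxd4 shared 388 exonic bases, and Hoxc5 and Hoxc10 shared 166. Hoxa5, Hoxb6, Hoxb9 and Hoxc13 shared no exonic base with another annotated gene. Of 18 noncoding genes of the clusters looked up by symbol, antisense and microRNA genes among them, 0 were found among the genes with deposited values. They could therefore not be analysed.

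Hox genes of the thoracic and lumbar levels were the most abundant. Hoxc6, a gene of the thoracic level, was the most abundant member, at 69.1, 74.6 and 70.2 TPM in controls 1 to 3 and 62.0, 60.7 and 69.4 TPM in Treg co-culture 1 to 3. Hoxc8, which patterns thoracic segments, followed at 46.8, 44.9 and 45.5 TPM in controls and 41.4, 45.3 and 45.5 TPM in the co-cultures. Hoxc10, a gene of the lumbar level, stood at 31.6, 42.4 and 29.6 TPM in controls and 37.7, 33.2 and 35.8 TPM in the co-cultures. In controls these 3 did not overlap. Hoxd8 came next at 25.4 to 29.6 TPM in controls, where it overlapped Hoxc10, and Hoxb7 (17.2 to 21.7 TPM), Hoxc9 (16.7 to 22.1 TPM) and Hoxb2 (14.96 to 19.8 TPM) overlapped each other. In the co-cultures Hoxb2 stood higher in this order, lying at 29.9 to 38.02 TPM, above Hoxd8 at 26.7 to 28.8 TPM and overlapping Hoxc10. All other tested members lay at or below 16.5 TPM in every library.

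The Hoxc cluster (chromosome 15, 102921103 to 103036852 in GRCm38) supplied 51.6% ± 0.911 of all Hox TPM in controls (SD, n = 3). Hoxb (chromosome 11, 96194316 to 96368256) supplied 22.4% ± 0.804, Hoxa (chromosome 6, 52155590 to 52260880) 16.9% ± 1.02 and Hoxd (chromosome 2, 74668310 to 74765142) 9.11% ± 0.964. Within Hoxd, Hoxd8 alone made up 79.6% ± 1.14 of the cluster. By paralog number, groups 5 to 8 held 57.3% ± 0.683 of the Hox TPM, groups 9 to 13 held 24.9% ± 0.483 and groups 1 to 4 held 17.8% ± 0.422.

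**Figure D1:**
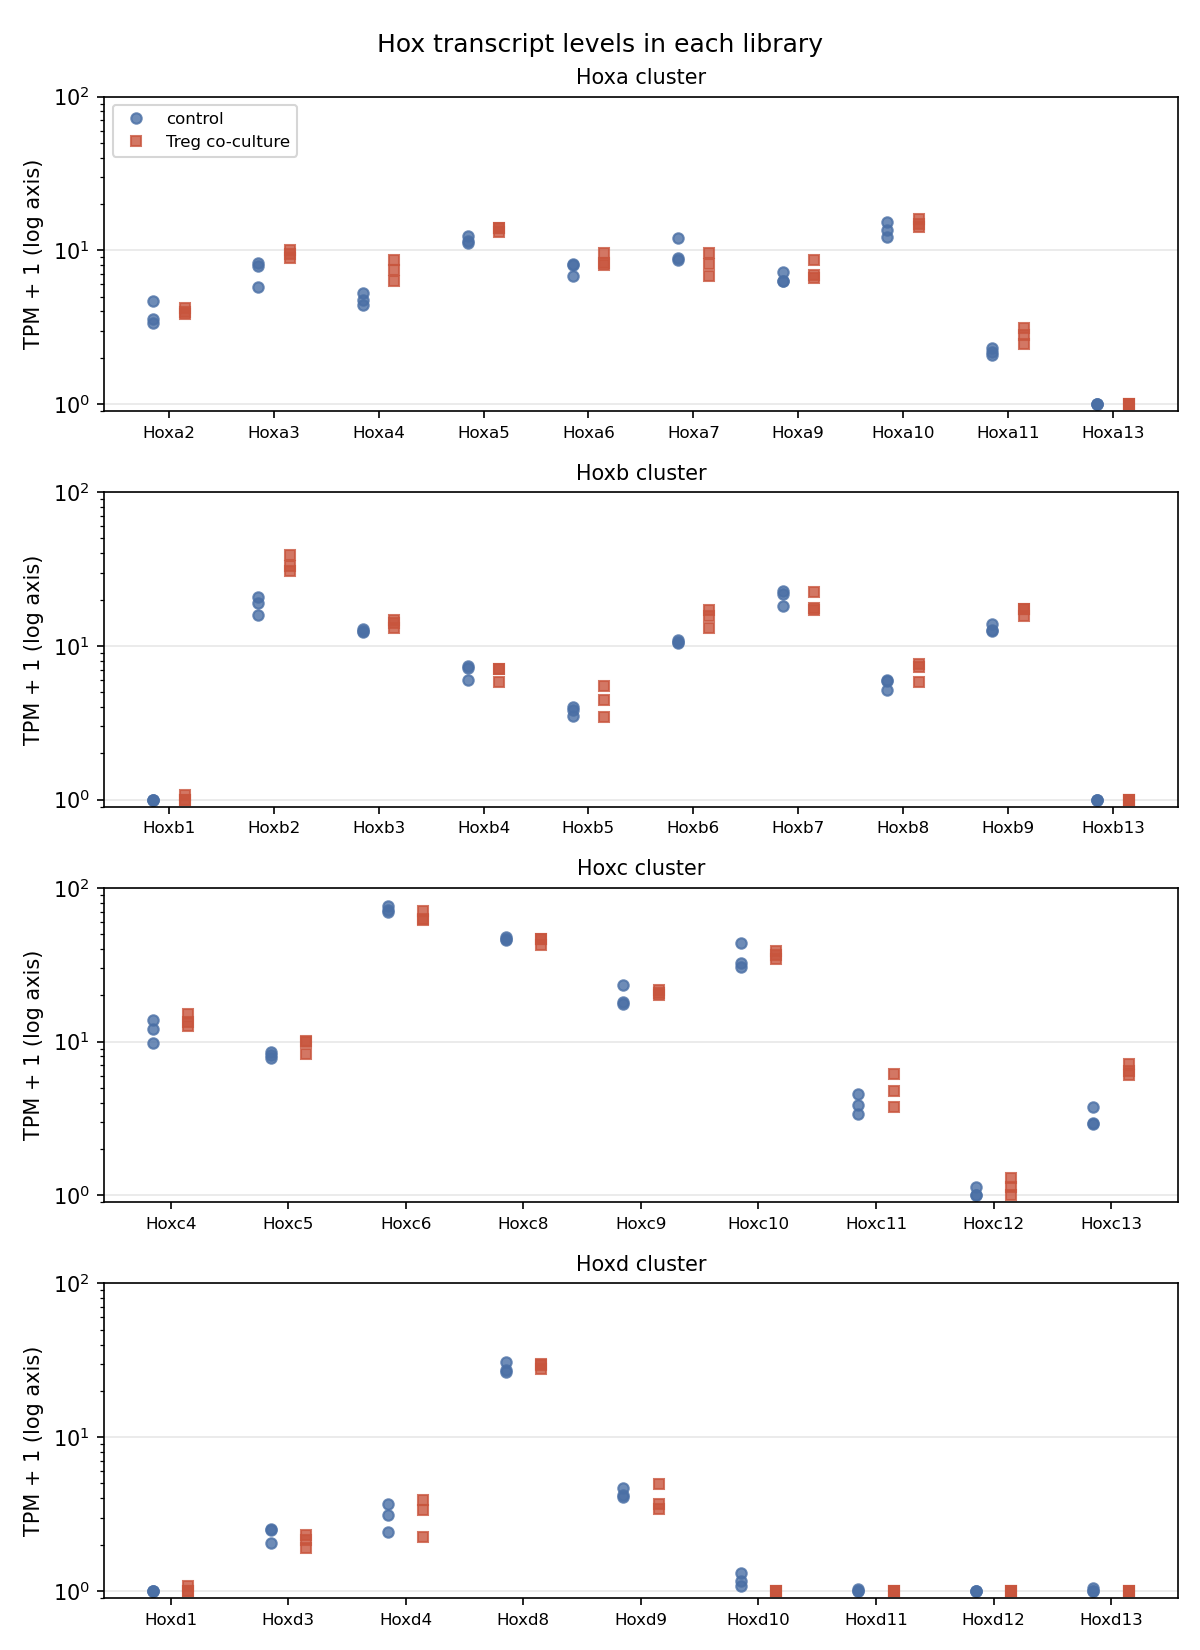
TPM + 1 on a log axis for Hox genes in 4 panels, 1 per cluster ordered by paralog number, with controls as circles and Treg co-culture libraries as squares (3 each). Hoxc6, Hoxc8 and Hoxc10 lie highest, Hoxb2 and Hoxc13 show squares well above circles, and Hoxd10 to Hoxd13 lie at or near a TPM of 0.

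Of the 9 genes with paralog numbers 11 to 13, 3 were at 0 throughout, 3 averaged below 1 TPM and 3 were tested. The tested ones were Hoxa11, Hoxc11 and Hoxc13. Hoxa13, Hoxb13 and Hoxd12 were at 0 in all 6 libraries. A further 6 members stayed below 1 TPM on average and were not tested. Hoxb1, of the hindbrain, was at 0 but for 0.064 TPM in Treg co-culture 3, and Hoxd1 was at 0 but for 0.077 TPM in Treg co-culture 2. Hoxc12 was at 0.140 TPM in control 2, 0.299 TPM in Treg co-culture 2, 0.139 TPM in Treg co-culture 3 and 0 elsewhere. Hoxd11 and Hoxd13 were above 0 only in control 1, at 0.033 and 0.051 TPM. Hoxd10 was at 0.071, 0.153 and 0.311 TPM in the controls and listed at 0 in every co-culture library. Such values stand for few reads of unknown number. The 30 other members averaged at least 1 TPM over all libraries, which was the condition for testing, and among these Hoxd3 (1.24 TPM over all libraries) and Hoxa11 (1.498 TPM) were the lowest.

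Every Hox gene that passed the test was higher after co-culture. In limma's moderated test on log2(TPM + 1), fitted on 12405 genes with Benjamini-Hochberg adjustment over all of them, 7 of the 30 tested Hox genes were higher after co-culture at an adjusted p of 0.05. They were Hoxb2, Hoxc13, Hoxb6, Hoxb9, Hoxa4, Hoxa5 and Hoxa3. This share of 23.3% was close to the 19.8% of all genes tested that were called higher. None was called lower by limma, against 18.0% of all genes tested (37.8% were called in either direction), and 1 (Hoxc6) was lower at an unadjusted p under 0.05. The co-culture values lay wholly above the controls for 10 of 30, against 25.3% of all genes tested, and wholly below for 0 of 30, against 24.0% (49.3% in either direction). The median log2 fold change of the 30 was 0.16, beside 0.0015 over all genes tested, and the median of the absolute values was 0.18 beside 0.15. Without Treg co-culture 1, 5 of the 30 were called higher, Hoxa3 and Hoxa5 no longer passing.

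**Figure D2:**
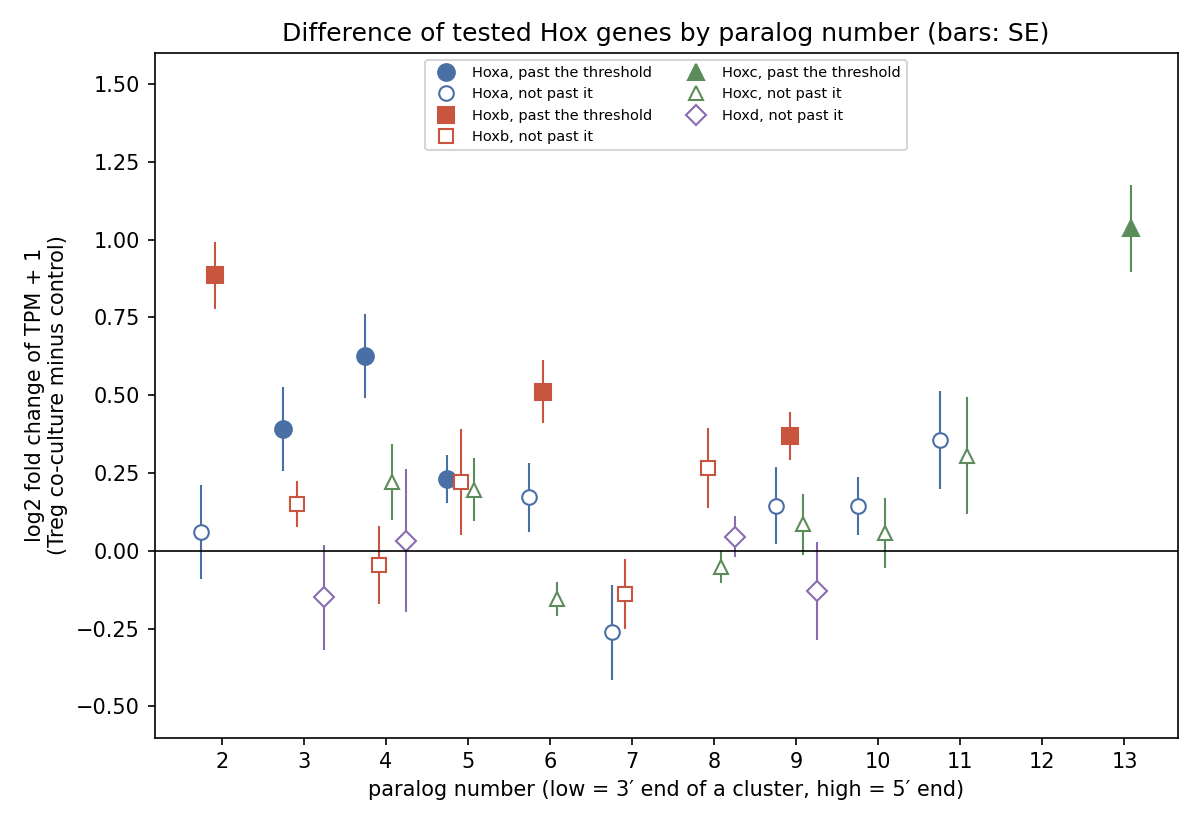
Log2 fold change (Treg co-culture minus control, on TPM + 1) of tested Hox genes from paralog number 2 upward against paralog number, with limma's SE as bars, symbols by cluster and filled symbols for genes past the threshold. The 7 filled symbols all lie above 0 and spread from paralog number 2 to 13, and no Hoxd gene is filled.

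Among genes of the 3′ end (paralog numbers 1 to 4), Hoxb2 showed the greatest rise in TPM of any tested Hox gene. Hoxb2 (NCBI Gene 103889) patterns the hindbrain. It was at 14.96, 19.8 and 17.95 TPM in controls 1 to 3 and at 31.9, 38.02 and 29.9 TPM in Treg co-culture 1 to 3. The lowest co-culture library was thus well above the highest control. Its mean rose 1.89-fold, from 17.6 ± 2.44 to 33.3 ± 4.23 TPM (SD, n = 3 each), with a log2 fold change of 0.89 (SE 0.11, limma adjusted p = 0.000126). Its paralog Hoxa2, at 2.35 to 3.69 TPM in controls and 2.84 to 3.21 TPM in the co-cultures, overlapped between the groups (log2 fold change 0.06, SE 0.15, limma adjusted p = 0.782). Hoxb2 made up 85.7% ± 4.77 of the TPM of paralog group 2 in controls and 91.7% ± 1.22 after co-culture.

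Hoxa4 (NCBI Gene 15401), active from the hindbrain border through the neck, also rose. It was at 4.28, 3.77 and 3.38 TPM in controls and 5.29, 7.61 and 6.46 TPM in the co-cultures, without overlap. Its log2 fold change came to 0.63 (SE 0.14, limma adjusted p = 0.00466) and the ratio of means 1.70. Of its paralogs, Hoxb4, known for expanding blood stem cells, had a log2 fold change of -0.04, Hoxc4 one of 0.22 and Hoxd4 one of 0.03, and none passed the test. Hoxa4 thus went from 16.8% ± 1.00 to 23.8% ± 2.51 of the TPM of its paralog group. Hoxa3 (NCBI Gene 15400), needed for thymus and parathyroid formation, was at 6.85, 7.23 and 4.77 TPM in controls and 8.999, 8.47 and 7.89 TPM in the co-cultures. Control 3 was the low library here. The log2 fold change of Hoxa3 reached 0.39 (SE 0.13, limma adjusted p = 0.0422). The call was lost without control 3 (log2 fold change 0.23, limma adjusted p = 0.112), without Treg co-culture 1 (0.117), 2 (0.0939) or 3 (0.0576), with no filter on low genes (0.0961) and without limma's mean-variance trend (0.0764).

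Hoxb3, a gene of the hindbrain and pharyngeal arches, did not overlap between the groups, at 11.4 to 11.8 TPM in controls and 12.1 to 13.6 TPM in the co-cultures, with a log2 fold change of 0.15 (limma adjusted p = 0.140). Hoxd3 had a log2 fold change of -0.15 (SE 0.17) and its groups overlapped. Of the 10 tested genes with numbers 1 to 4, 3 were higher and 7 did not pass, beside 19.8% called higher among all genes tested.

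In the middle of the clusters (paralog numbers 5 to 8), 2 of 11 tested genes were higher, beside 19.8% of all genes tested. Hoxb6 (NCBI Gene 15414), a thoracic-level gene also used in limb buds, was at 9.92, 9.46 and 9.63 TPM in controls and 12.1, 16.2 and 14.7 TPM in the co-cultures. The controls lay close together and below every co-culture library, of which Treg co-culture 1 was the lowest. Its log2 fold change came to 0.51 (SE 0.10, limma adjusted p = 0.00279) and the ratio of means 1.48. Hoxa5 (NCBI Gene 15402), needed for lung and airway development, was at 10.5, 11.4 and 10.2 TPM in controls and 12.1, 13.04 and 12.97 TPM in the co-cultures. Its log2 fold change reached 0.23 (SE 0.08, limma adjusted p = 0.0376). Hoxa5 lost its call with batch as a replicate block (limma adjusted p = 0.0521), with no filter (0.0620), without control 1 (0.0854) or 3 (0.107), and without Treg co-culture 1 (0.0507), 2 (0.104) or 3 (0.101).

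The most abundant Hox gene, Hoxc6, did not pass the test. It had a log2 fold change of -0.15 (SE 0.06), with means of 71.3 ± 2.90 TPM in controls and 64.0 ± 4.70 TPM in the co-cultures. Its groups overlapped, because Treg co-culture 3 (69.4 TPM) lay above control 1 (69.1 TPM). The adjusted p of 0.0508 in limma missed the threshold, and Hoxc6 passed it as lower without Treg co-culture 3 (log2 fold change -0.21, limma adjusted p = 0.00968), with median-of-ratios scaling (0.0459), with quantile normalization (0.0468), after rescaling without mitochondrial and ribosomal protein genes (0.0470) and with a filter of 5 TPM (0.0454). Hoxc6 and Hoxb6 of the same paralog group thus had differences of opposite sign, and Hoxb6 went from 11.1% ± 0.590 to 16.6% ± 2.08 of the TPM of group 6. That difference between the 2 genes was not tested.

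Both genes of paralog group 7 lay below 0 without passing the test. Hoxa7 had a log2 fold change of -0.26 (SE 0.15, limma adjusted p = 0.207) and Hoxb7 one of -0.14 (SE 0.11). Hoxb7 was at 17.2 to 21.7 TPM in controls and 16.2 to 21.3 TPM in the co-cultures. The trunk genes of group 8 were close to 0 in difference for Hoxc8 (-0.05, SE 0.05) and Hoxd8 (0.05, SE 0.07). Hoxb8 had a log2 fold change of 0.27 (limma adjusted p = 0.134) and passed only without Treg co-culture 2 (0.39, limma adjusted p = 0.0388) among the alternatives run. Hoxa6, Hoxb5 and Hoxc5 had log2 fold changes of 0.17, 0.22 and 0.20 and did not pass.

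At the 5′ end (paralog numbers 9 to 13), 2 of 9 tested genes were higher, beside 19.8% of all genes tested. Hoxc13 (NCBI Gene 15422), the nail and hair follicle gene at the far end of the Hoxc cluster, had the greatest fold change of the tested Hox genes. It was at 1.89, 1.93 and 2.78 TPM in controls and 5.42, 6.10 and 5.06 TPM in the co-cultures, so that every co-culture library lay above every control. Its mean rose 2.51-fold, from 2.20 ± 0.502 to 5.52 ± 0.526 TPM, with a log2 fold change of 1.04 on the TPM + 1 scale (SE 0.14, limma adjusted p = 0.000257). The added 1 TPM understates the change of so low a gene, and with a pseudocount of 0.01 the log2 fold change was 1.34. Of the other genes numbered 13, Hoxa13 and Hoxb13 were at 0 throughout and Hoxd13 was above 0 in 1 library.

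Hoxb9 (NCBI Gene 15417), which with its paralogs patterns the rib-bearing trunk, was at 12.9, 11.7 and 11.5 TPM in controls and 14.7, 16.4 and 16.5 TPM in the co-cultures. Its groups did not overlap, and its log2 fold change reached 0.37 (SE 0.08, limma adjusted p = 0.0038). The paralogs Hoxa9, a gene of blood progenitors, Hoxc9 and Hoxd9 had log2 fold changes of 0.14, 0.08 and -0.13 and did not pass. Hoxa10 and Hoxc10, of the lumbar and hindlimb level, had log2 fold changes of 0.14 and 0.06. Hoxc10 passed only without control 2 (0.21, limma adjusted p = 0.0447), which was its highest control at 42.4 TPM. Hoxa11, of the forearm, lower leg and kidney, was at 1.07 to 1.32 TPM in controls and 1.46 to 2.14 TPM in the co-cultures. Its groups did not overlap, yet it missed the threshold (log2 fold change 0.36, limma adjusted p = 0.104) and passed only without the mean-variance trend (0.0339). Hoxc11 had a log2 fold change of 0.31 (SE 0.19) with overlapping groups.

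**Figure D3:**
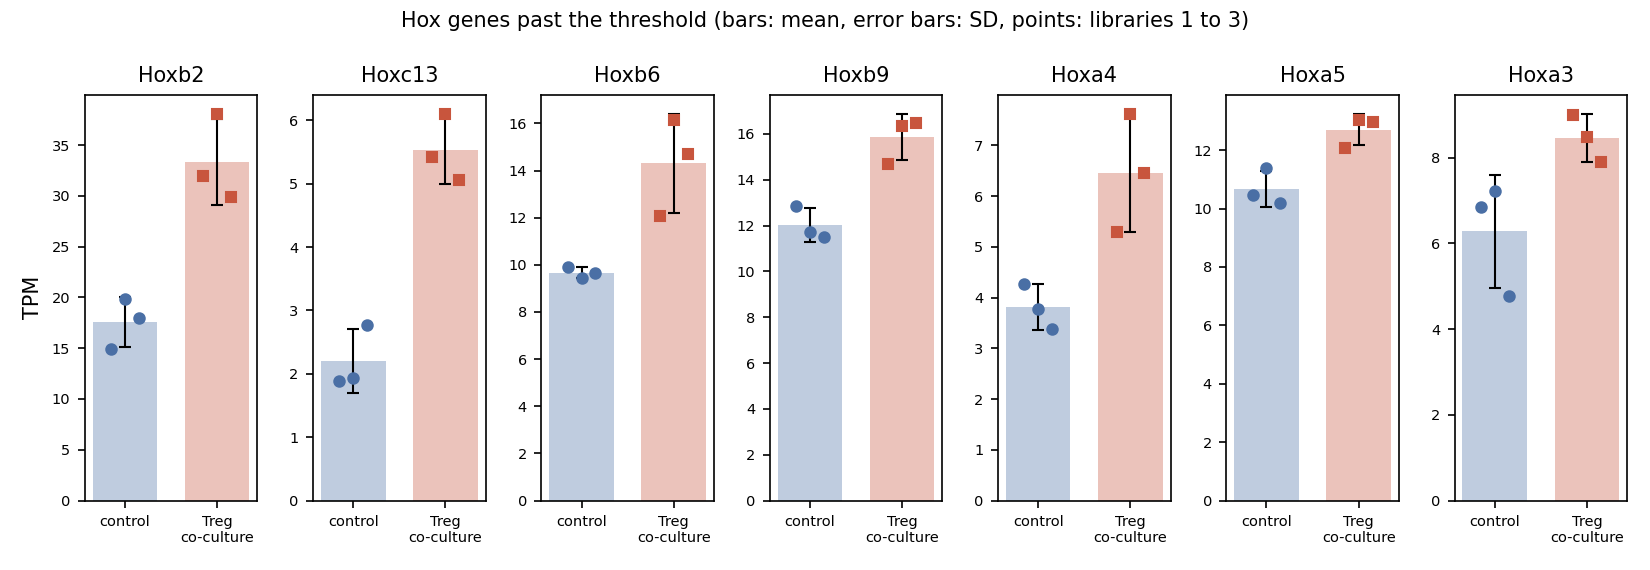
TPM of the 7 Hox genes past the threshold, with bars for the mean, error bars for the SD and points for libraries 1 to 3 of each group (controls as circles, Treg co-culture as squares). In each panel the lowest co-culture library lies above the highest control, by the widest margin relative to the control mean in Hoxc13 and by the narrowest in Hoxa5.

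Batch is given in the labels as a number shared by 1 control and 1 co-culture library. Each of the 7 genes was higher after co-culture in 3 of 3 batches. Their groups did not overlap, so this would hold for any pairing of the libraries and does not bear on batch. Hoxc6 and Hoxb7 were lower in 3 of 3 batches. With the block, Hoxb2, Hoxc13, Hoxb6, Hoxb9, Hoxa4 and Hoxa3 passed the test.

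Summed by cluster, Hoxb and Hoxa were higher after co-culture, while Hoxc and Hoxd were nearly level. Such sums are descriptions and were not tested. Hoxb summed to 80.2, 87.4 and 84.5 TPM in controls and 104, 117 and 107 TPM in the co-cultures, a ratio of 1.30. Leaving out Hoxb2, the other Hoxb genes summed to 66.5 ± 1.23 and 76.1 ± 3.70 TPM, a ratio of 1.15. Hoxa summed to 65.8, 66.6 and 57.3 TPM in controls and 71.2, 76.0 and 73.3 TPM in the co-cultures. For Hoxc the means were 193 ± 9.35 and 194 ± 5.06 TPM, and for Hoxd 34.1 ± 2.82 and 34.3 ± 1.78 TPM. All Hox genes together summed to 371, 389.8 and 364 TPM in controls and 401, 421 and 413 TPM in the co-cultures. The Hoxb share of this total went from 22.4% ± 0.804 to 26.6% ± 1.12 and the Hoxc share from 51.6% ± 0.911 to 47.2% ± 1.01.

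By call, 3 of 10 tested Hoxa genes, 3 of 8 Hoxb genes, 1 of 8 Hoxc genes and 0 of 4 Hoxd genes were higher. Over all genes tested, 19.8% were called higher, and with so few genes these counts do not set the clusters apart. The median log2 fold changes were 0.20, 0.24, 0.14 and -0.05 for Hoxa to Hoxd. None of the 4 tested Hoxd genes had an unadjusted p under 0.05 in limma. No test compared the clusters. The sum of the 3′ genes (numbers 1 to 4) went from 66.9 ± 3.66 to 91.7 ± 5.19 TPM, within which Hoxb2 alone went from 17.6 to 33.3 TPM. The sum of numbers 5 to 8 went from 215 ± 5.07 to 214 ± 6.19 TPM and that of numbers 9 to 13 from 93.4 ± 4.95 to 106 ± 0.825 TPM. Over the 30 tested genes the log2 fold change was compared with position along the clusters, with a Pearson correlation with paralog number of 0.072 and a Spearman correlation of -0.012. Against the control level these were -0.245 and -0.253. Neighbouring genes share libraries and some share sequence, so these correlations are descriptions only.

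**Figure D4:**
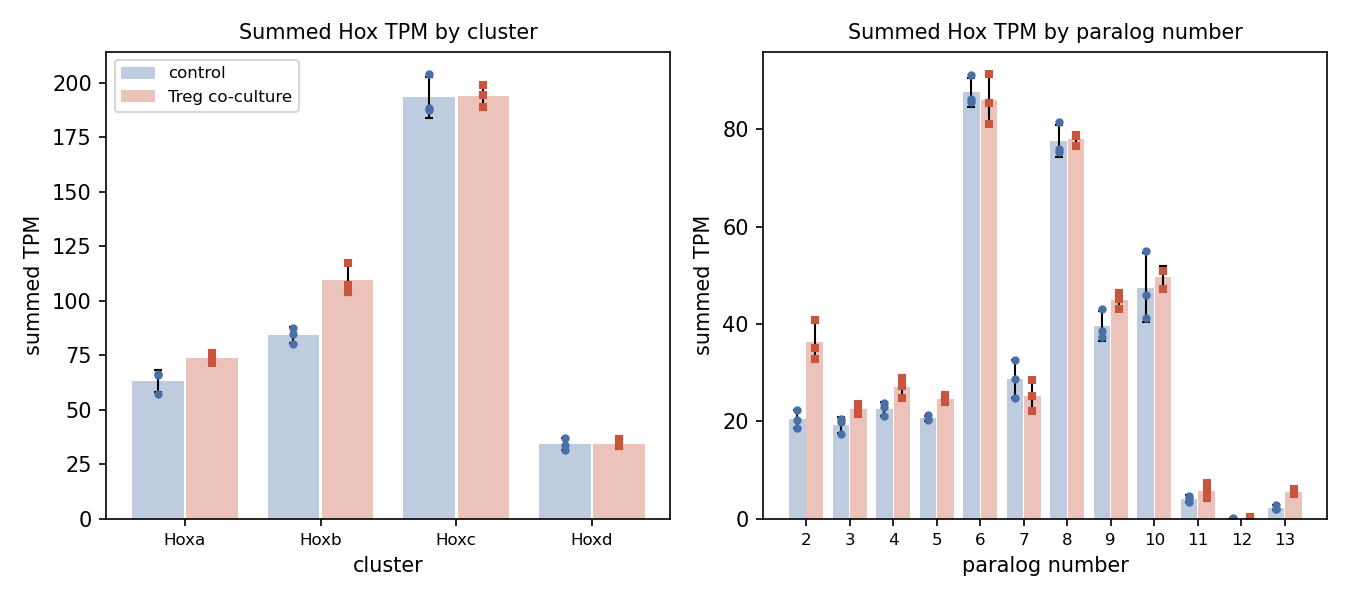
Summed TPM of the Hox genes by cluster (left) and by paralog number from 2 upward (right), with bars for the mean, error bars for the SD and points for the 3 libraries of each group (controls as circles, Treg co-culture as squares). The Hoxb bars differ most among clusters (84.0 against 109 TPM). Paralog group 2, which holds Hoxb2, has the greatest difference in TPM, though not the greatest ratio, among numbers (20.4 against 36.3 TPM).

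From the TALE homeodomain class, which holds the Pbx and Meis cofactors, a list of 11 Pbx, Meis, Pknox and Tgif genes was tested. Of these, 2 were higher and 3 lower. Among all genes tested, 19.8% were higher and 18.0% lower. With so few genes these counts do not set the list apart. Its median log2 fold change was -0.13, beside 0.0015 over all genes tested. Without Treg co-culture 1, 2 were higher and 2 lower. Meis1, which joins Hox and Pbx on DNA, fell from 24.2 ± 2.28 to 20.0 ± 0.439 TPM (log2 fold change -0.26, SE 0.07, limma adjusted p = 0.018). Pbx3 rose from 16.0 ± 1.19 to 19.1 ± 1.43 TPM, and Tgif1, a TALE repressor of Smad signalling, had a log2 fold change of 0.20 (limma adjusted p = 0.0274), although its groups overlapped. Pbx4, named after its value was seen, was called lower (-0.44, limma adjusted p = 0.0485), but at 1.63 TPM in controls and 0.945 TPM in the co-cultures it met the condition for testing only through the controls. The lower genes of this list numbered 2 with a pseudocount of 0.1 or 0.01. The 2 higher calls were not stable: there were 0 when control 3, Treg co-culture 2 or the co-culture library of batch 3 was left out, and 1 without control 1, without control 2 or with the replicate block.

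Of 34 tested Polycomb genes, which keep Hox genes silent, 7 were higher and 6 lower, with a median of 0.0018. These counts were near the shares over all genes tested (19.8% higher, 18.0% lower). Without Treg co-culture 1 they were 5 and 5. Ezh2, a methyltransferase of Polycomb repressive complex 2, rose from 27.05 ± 2.54 to 36.7 ± 1.80 TPM (log2 fold change 0.43, limma adjusted p = 0.000987), and its partner Suz12 rose from 35.01 ± 0.679 to 42.0 ± 0.455 TPM. Ezh1, the alternative methyltransferase, named after its value was seen, fell from 17.2 ± 0.529 to 13.6 ± 0.449 TPM (log2 fold change -0.32, limma adjusted p = 0.0033). The Polycomb repressive complex 1 member Phc2 rose by 0.34, and Cbx6, a chromodomain subunit, fell by 0.48 on the log2 scale (limma adjusted p = 2.18e-05). Of 18 trithorax and H3K27 demethylase genes, 4 were higher in limma and 14 did not pass, with a median of 0.03. This count too was near the 19.8% over all genes tested, and was 3 without Treg co-culture 1. The 4 were the methyltransferase complex subunits Dpy30 (0.29) and Wdr5 (0.22), the H3K79 methyltransferase Dot1l (0.25) and the elongation factor Aff1 (0.12). With quantile normalization, at an adjusted p of 0.1, and likewise without control 1 or without control 2, 1 gene of this list was lower.

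Of 16 tested retinoic acid genes, 5 were higher and 4 lower, with a median of 0.11, beside 19.8% higher and 18.0% lower among all genes tested. Both counts were the same without Treg co-culture 1. The retinaldehyde dehydrogenase Aldh1a1, which makes retinoic acid, fell from 204 ± 1.10 to 116 ± 2.75 TPM (log2 fold change -0.80, SE 0.03, limma adjusted p = 2.84e-08), and Aldh1a3 fell from 35.9 ± 1.47 to 22.5 ± 1.42 TPM. The retinoic acid breakdown enzyme Cyp26b1 fell from 9.73 ± 0.323 to 4.59 ± 0.230 TPM, and Dhrs3, which turns retinaldehyde back to retinol, rose from 112 ± 6.06 to 153 ± 2.81 TPM. The receptor gene Rarb, named after its value was seen, rose from 5.48 ± 0.823 to 12.1 ± 0.514 TPM (log2 fold change 1.03, SE 0.11, limma adjusted p = 4.28e-05). Of the 6 ParaHox and caudal genes (relatives of Hox genes outside the clusters), 5 were at 0 in every library and the sum of all 6 was at most 0.153 TPM.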

How the data were processed

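Messenger RNA captured on beads was sequenced from 6 libraries. Per the file headers, the deposited values are the authors' TPM, listed by NCBI Gene number. TPM keeps no sequencing depth, so depth is unknown and no counting interval is given. Builds listed in the submitters' processing notes are GRCm38, mm10 and GRCm39, and which of them served for alignment is not stated there. Aligner and counting tool: not given in the sources used here. All value columns belonged to these samples.

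A symbol from the NCBI RefSeq table of GRCm38.p6, used for names only, was found for 21992 of 22186 genes. Homeoboxes, gene spans and exon overlaps came from GENCODE M21 (GRCm38). The 12405 genes averaging 1 TPM or more were tested with limma 3.58.1 in R 4.3.3 on log2(TPM + 1), with eBayes with a trend, without a block, and a Benjamini-Hochberg adjusted p of 0.05 over all of them. Fold changes on this scale understate the change of low genes. Tables and plots used Python 3.11.15, pandas 2.3.3 and matplotlib 3.10.9. The labels pair libraries by batch, so a fit with batch as a replicate block was an alternative. Within batches 1 to 3, deviations from the group means had correlations of 0.0115, -0.0146 and 0.004. In simulated libraries of this comparison (12405 genes), limma recovered 91% of 100 genes changed by 1 and 39% of 100 changed by 0.3 on the log2 scale, with 5 false calls. Far fewer genes were changed there than the 37.8% called in the data. The adjusted p depends on that share, so these rates do not carry over to the data.

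Named genes were all Hox genes, up to 4 members of each other list with the lowest adjusted p, and markers by level. The members and lists were chosen with earlier results of these data known. Any pair of libraries held identical values for at most 60 of 13935 genes, so no library was a copy of another. Each library counted as 1 replicate, although this does not show that they came from separate animals or cultures. A few genes and sequences are not reported here and are left out of the plots, although the counts and sums include those genes.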

Additional observations from a re-analysis of the deposited data

How the results depend on the processing

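The count of Hox genes called higher was 7 and lay between 5 and 8 when each library was left out in turn. It was 6 with the replicate block, 6 with a filter of 5 TPM, 5 with no filter, 5 at an adjusted p of 0.01 and 8 at 0.1. Hoxb2, Hoxc13, Hoxb6, Hoxb9 and Hoxa4 passed under every alternative that tested them (the filter of 5 TPM left Hoxc13 untested). The count called lower was 0 and was 1 (Hoxc6) under quantile normalization, at an adjusted p of 0.1, with the 5 TPM filter, after rescaling that left out ribosomal protein and mitochondrial genes, and by median-of-ratios scaling. With a library left out it was 0 to 1, being 1 without Treg co-culture 3. The cause was not tested. The Hox median ranged from 0.13 to 0.21.

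Over all genes, 1626 were higher and 1417 lower at an adjusted p of 0.01, a stricter threshold by construction. The higher genes of the TALE list numbered 0 with no filter, 0 without the trend, 1 with the replicate block and 0 at 0.01. They numbered 0 to 2 with a library left out, and the lower ones 1 at 0.01. Lower trithorax genes numbered 1 with quantile normalization, 1 at 0.1 and 0 to 1 with a library left out. Higher retinoic acid genes numbered 3 at 0.01 and 8 at 0.1, and higher regional factors 3 with a filter of 5 TPM. These list counts were recomputed as alternatives chosen after seeing the data. The replicate block ended the call of Hoxa5 and of no other Hox gene. Low TPM values and the unknown depth limit the genes near 1 TPM.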

Other observations

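Of 36 tested transcription factors that mark body regions outside the Hox clusters, 5 were higher and 6 lower after co-culture, with a median log2 fold change of 0.02. Their shares were not above those of all genes tested (19.8% higher, 18.0% lower). Without Treg co-culture 1, 6 were higher and 6 lower. Osr2, a factor of limb joints and palate, fell from 21.2 ± 1.39 to 9.52 ± 1.08 TPM (log2 fold change -1.08, SE 0.09, limma adjusted p = 8.51e-06). Prrx1, the limb and lateral plate mesenchyme factor, fell from 343 ± 6.60 to 305 ± 3.56 TPM. Dlx3, of the branchial arch, skin appendage and bone lineages, was called higher, at 0.434 ± 0.173 TPM in controls and 2.26 ± 0.335 TPM in the co-cultures. It met the condition for testing, a mean of 1 TPM over all libraries, only through the co-cultures. Of the 60 genes of this list, 8 were at 0 in every library. Named after their values were seen, further higher genes included Dlx2, Hand2 and Foxf2, and the other lower ones were Irx1, Irx2, Meox2 and Tbx18.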
